A study of Mus musculus with 12 samples.

Results

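The desmosome genes described here are *Dsp*, *Jup*, *Pkp1*, *Pkp3*, *Perp*, *Dsg2*, *Dsg3*, *Dsc1*, *Dsc2* and *Dsc3*, 10 of the 21947 loci in the count table. They were taken by gene name, and the few loci in which a name was joined to others by a comma were left out. RNA-Seq was performed on primary keratinocytes from newborn mice of the BALB/c strain, cultured first at 0.05 mM calcium and then at 0.12 mM, with RNA taken 48 h after transfection. The cells received 75 pmol of a pool of siRNAs against suprabasin (siSbsn), the same amount of a non-targeting pool (siControl), or no siRNA. Each of the 3 conditions had 2 libraries in batch 1, whereas batch 2 comprised siControl and siSbsn alone, with 3 libraries each. All cells compared went through the same calcium switch. The labels do not say whether replicates came from separate cultures, and the tests therefore measure the spread between libraries, which may be technical.

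Desmosomes are button-like junctions that rivet neighbouring keratinocytes together and anchor their keratin filaments. Desmogleins and desmocollins are cadherins that meet those of the next cell in the extracellular space. Inside the cell their tails bind plakoglobin (*Jup*) and the plakophilins (*Pkp1*, *Pkp3*), which in turn bind desmoplakin (*Dsp*), the plakin that holds the keratin filaments. *Perp* encodes a tetraspan membrane protein of the same junction. In epidermis a rise in calcium lets keratinocytes assemble desmosomes, and the cadherins are layered, with *Dsg3* and *Dsc3* strongest in the lower layers and *Dsc1* in the upper ones.

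The total count per library lay between 27934836 and 49553923. *Sbsn*, the gene targeted by the siRNA, had 371, 332 and 459 CPM (read counts scaled to a common library size) in the siControl libraries of batch 2, against 124, 125 and 121 CPM with siSbsn. Batch 1 gave 1189 and 1356 CPM for siControl and 1697 and 1231 CPM for cells without siRNA. Of its siSbsn libraries, replicate 2 had 696 CPM, but the library labelled siSbsn batch 1 replicate 1 reached 1965 CPM, the highest of the 12. The latter and replicate 1 without siRNA also had summed fibroblast markers of 1163 and 928 CPM, against 358 to 488 CPM in the other 10, with 6 of 6 markers detected in every library. Their summed immune markers were 9.52 and 10.5 CPM, against 1.73 to 3.59 CPM, and *Cd207*, a marker of Langerhans cells, was at 0 in every library. Summed melanocyte markers were at 729 to 1071 CPM and summed endothelial markers at 1.91 to 4.40 CPM. SiControl batch 1 replicate 1 also stood apart, with the highest summed keratinocyte markers at 48790 CPM (19216 to 36303 CPM in the others). Keratinocyte identity was borne out in every library by *Krt5*, which did not go below 6489 CPM, and *Krt14*, which did not go below 9607 CPM. The larger shifts on leaving out 1 of the libraries that stood apart are given below.

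The promoters of *Dsp* and *Jup*, the plakin and the plakoglobin gene, are shown. They were the 2 of the 10 genes with an entry in the RefSeq promoter table (GRCm38.p6) and were not chosen by their expression. Each run covers the 250 bases before the annotated start. Capitals mark GGGCGG (an SP1 motif) and GGGTG (the core of KLF motifs) on either strand.
Dsp, chr13:38151044-38151293, plus strand: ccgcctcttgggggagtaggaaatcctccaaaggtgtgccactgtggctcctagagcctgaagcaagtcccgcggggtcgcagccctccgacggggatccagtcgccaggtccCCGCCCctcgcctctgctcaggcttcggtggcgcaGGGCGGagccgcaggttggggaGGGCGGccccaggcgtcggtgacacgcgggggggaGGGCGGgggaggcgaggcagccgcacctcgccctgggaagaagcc
Jup, chr11:100397791-100398040, minus strand: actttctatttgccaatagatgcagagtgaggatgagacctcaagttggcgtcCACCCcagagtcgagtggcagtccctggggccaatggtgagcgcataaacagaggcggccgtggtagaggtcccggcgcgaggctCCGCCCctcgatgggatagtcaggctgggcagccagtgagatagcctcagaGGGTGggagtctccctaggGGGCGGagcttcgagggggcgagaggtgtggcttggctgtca
The *Dsp* window held 4 SP1 motifs, whose first bases lie at -137, -102, -80 and -45 from the start. The *Jup* window held 2 SP1 motifs, at -112 and -42, and 2 KLF cores, at -197 and -61. Of the 32851 promoter windows of the same length in the table, 32.7% held the SP1 motif and 52.0% the KLF core, so both are common letters. AP-1 (TGANTCA, in 6.75% of windows), GRHL (AACCGGTT, in 0.116%), E-box (CANNTG, in 66.2%) and TATA box letters (searched as TATAAA, in 12.4%) were not found in either window.

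The 10 genes together took 1.63% to 2.65% of the reads of a library. Per kb of the longest annotated transcript, the highest level was that of *Perp* (median over 12 libraries 1958 CPM per kb, range 1620.2 to 3627). It was followed by *Jup* (983, range 798 to 1588), *Dsp* (758, range 294 to 923) and *Pkp1* (634, range 515 to 1069.8). *Dsc3* (292, range 141 to 388) and *Pkp3* (254, range 223 to 418) came next, and then *Dsg3* (127, range 42.5 to 211). *Dsc2* (22.5, range 14.5 to 50.3), *Dsg2* (10.4, range 4.35 to 11.6) and *Dsc1* (8.00, range 4.18 to 34.9 CPM per kb) were the lowest. The neighbours *Jup* and *Dsp*, *Dsp* and *Pkp1*, *Dsc3* and *Pkp3*, *Dsg3* and *Dsc2*, and *Dsg2* and *Dsc1* overlapped in range, while *Perp* and *Jup*, *Pkp1* and *Dsc3*, *Pkp3* and *Dsg3*, and *Dsc2* and *Dsg2* did not. The order depends on which transcript is taken. Per kb of the median annotated transcript, *Jup* was first at 4245 CPM per kb, *Perp* followed at 1958, and *Dsp* ranked 5 at 936. The lowest single count behind these values was 474 reads (*Dsc1*), and *Dsp* never had fewer than 78311 reads.

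**Figure D1:**
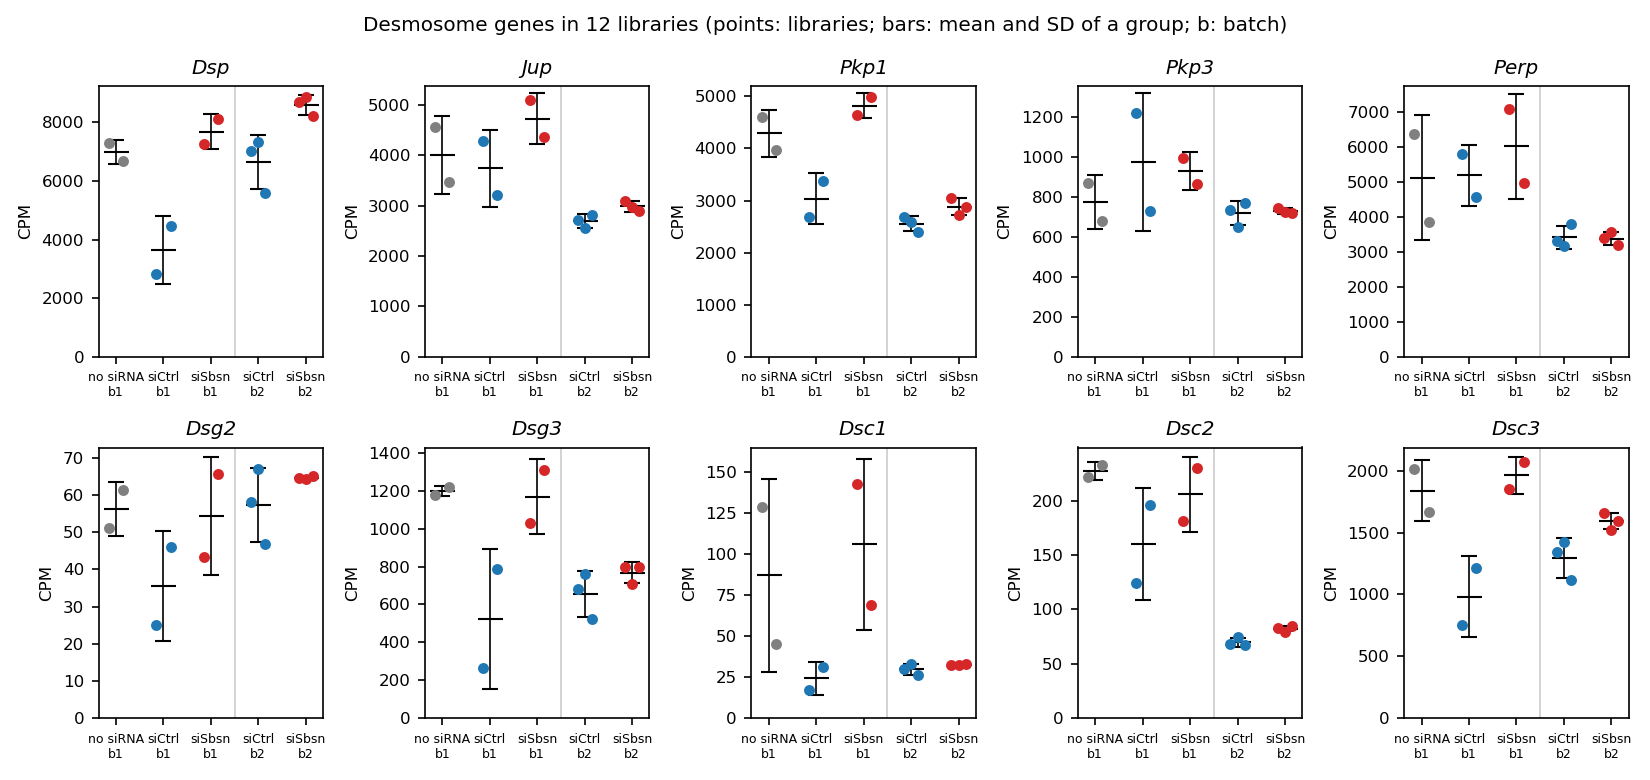
CPM (linear axis from 0) of the 10 desmosome genes in each of 12 libraries, by group (siCtrl, siControl). Points are libraries and black bars the mean and SD of a group (n = 2 in batch 1, b1, and n = 3 in batch 2, b2). *Dsp* at 2821 and 4461 CPM in siControl of batch 1 lay below all other libraries, and *Dsc1* reached 129 and 143 CPM in 2 libraries of batch 1.

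To examine whether the *Sbsn* siRNA changed the desmosome genes relative to the non-targeting pool, siSbsn was compared with siControl over both batches with batch in the model. The log2-fold change was above 0 for 9 of the 10 genes (50.8% of the 13211 loci tested were above 0), with a median of 0.36 for the 10 genes and 0.0066 for all loci. However, edgeR's quasi-likelihood test called 0 of the 10 genes, and 0.0% of all loci, where a call required a size over 0.5 on the log2 scale with q under 0.05. At an unadjusted p under 0.05, 6 of the 10 were up (*Dsp*, *Jup*, *Pkp1*, *Dsc1*, *Dsc2* and *Dsc3*), against 9.55% of loci. DESeq2 called 1 of the 10, *Dsp* (q = 0.0271), with 0.407% of loci called upward, and limma-voom called 0, with 0.0% of loci called upward. Without siControl batch 1 replicate 1 the median was 0.28 with 10 of 10 genes above 0. When the library labelled siSbsn batch 1 replicate 1 was left out, it was 0.37 with 8 of 10 above 0.

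*Dsp* encodes desmoplakin, the link to keratin, and is a plus-strand gene of chromosome 13 (38151294 to 38198577 in mm10), with 24 exons in a longest transcript of 9592 bases. The siControl libraries had 2821 and 4461 CPM in batch 1 and 7013, 7330.2 and 5597 CPM in batch 2. The siSbsn libraries had 7257 and 8103 CPM in batch 1 and 8674, 8857 and 8218 CPM in batch 2. Groups did not overlap in either batch, and the libraries without siRNA, at 7278 and 6689 CPM, lay close to siSbsn rather than to siControl of the same batch. SiSbsn exceeded siControl 1.58-fold over both batches, a log2-fold change of 0.66 with a standard error (SE) of 0.17 and q = 0.256. Within batches the log2-fold change was 1.05 (SE 0.27, q = 0.309) in batch 1 and 0.37 (SE 0.11, q = 0.426) in batch 2. Without siControl batch 1 replicate 1 the pooled value was 0.50, and it was 0.62 when the library labelled siSbsn batch 1 replicate 1 was left out.

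Plakoglobin and the plakophilins form the layer between the cadherin tails and desmoplakin. *Jup* lies on the minus strand of chromosome 11 from 100368856 to 100397790. With siControl *Jup* had 4281 and 3202 CPM in batch 1 and 2713, 2557 and 2822 CPM in batch 2. With siSbsn it had 5089 and 4366 CPM in batch 1 and 3098, 2972 and 2885 CPM in batch 2. The siSbsn values exceeded the siControl values of the same batch throughout, but the difference was small (log2-fold change 0.23, SE 0.099, q = 0.260).

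*Pkp1*, whose product stabilises desmosomes at the membrane, lies on the minus strand of chromosome 1 from 135871394 to 135919207. Its siControl libraries were at 2689 and 3377 CPM in batch 1 and at 2679, 2593 and 2405 CPM in batch 2. Its siSbsn libraries were at 4651 and 4995 CPM in batch 1 and at 3049.5, 2724 and 2870.3 CPM in batch 2. Again no siSbsn library of a batch fell within the range of siControl, and the pooled log2-fold change of *Pkp1* was 0.38 (SE 0.11, q = 0.256). *Pkp3*, a second plakophilin of epidermis, lies on the plus strand of chromosome 7 from 141078229 to 141090510. Batch 1 had 1221 and 730.1 CPM with siControl against 998 and 864 CPM with siSbsn, and batch 2 had 736, 651 and 769 CPM against 747, 723 and 722 CPM. The groups overlapped in both batches, and the log2-fold change of -0.0055 (SE 0.13, q = 0.980) had an approximate 95% interval from -0.26 to 0.24.

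*Perp*, the tetraspan gene, lies on the plus strand of chromosome 10 from 18845071 to 18857072 and has 3 exons and the shortest transcript of the 10, with 1952 bases. Batch 1 had 5808 and 4559.6 CPM with siControl against 7079.8 and 4963 CPM with siSbsn, and batch 2 had 3296, 3163 and 3787 CPM against 3392, 3557 and 3185 CPM. The groups overlapped in both batches. The log2-fold change of *Perp* was 0.084 (SE 0.12, q = 0.660), and leaving out the library labelled siSbsn batch 1 replicate 1 gave -0.024.

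The cadherin genes of the list all lie within chromosome 18, the desmocollins on the minus strand (*Dsc3* from 19960930 to 20002097, *Dsc2* from 20030633 to 20059554, *Dsc1* from 20083471 to 20114773) and the desmogleins on the plus strand (*Dsg3* from 20510274 to 20541310, *Dsg2* from 20558074 to 20604526). *Dsc3*, the most abundant desmocollin gene here, had 751 and 1212 CPM with siControl and 1854 and 2069 CPM with siSbsn in batch 1. The values of *Dsc3* in batch 2 were 1346, 1424 and 1113 CPM against 1659, 1524 and 1594 CPM. There was no overlap in either batch, with a pooled log2-fold change of 0.58 (SE 0.17, q = 0.256), or 0.42 without siControl batch 1 replicate 1. *Dsc2*, a more widely expressed desmocollin gene, had 124 and 196 CPM with siControl and 181 and 229.9 CPM with siSbsn in batch 1. In batch 2, siControl libraries of *Dsc2* had 68.0, 74.4 and 67.2 CPM and siSbsn libraries 83.2, 79.6 and 84.4 CPM. The siSbsn libraries were all above siControl in batch 2 and overlapped with it in batch 1 (pooled log2-fold change 0.29, SE 0.12, q = 0.259). The pooled value of *Dsc2* was 0.19 without siControl batch 1 replicate 1.

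*Dsc1*, the desmocollin gene of the upper layers, varied most between libraries, by 8.36-fold from the lowest to the highest. Batch 1 had 17.1 and 31.5 CPM with siControl, 143 and 69.3 CPM with siSbsn and 129 and 45.6 CPM without siRNA. Batch 2 had 30.2, 32.9 and 26.5 CPM with siControl and 32.5, 32.5 and 33.0 CPM with siSbsn. The 2 highest values belong to the 2 libraries with the highest summed fibroblast and immune markers, which also had the highest *Krt1* (214 and 335 CPM, against 26.4 to 61.4 CPM in the other 10). *Krt10* was not highest there, at 51.0 CPM (no siRNA) and 70.2 CPM (siSbsn), against 68.0, 72.1 and 73.8 CPM in siControl of batch 2. Summed differentiation markers were 794 and 941 CPM there, and 754 CPM in siControl batch 1 replicate 1. The part of these markers in the *Dsc1* difference was not tested. Over both batches *Dsc1* had a log2-fold change of 0.92 (SE 0.38, q = 0.259), which became 0.59 without siControl batch 1 replicate 1 and 0.58 when the library labelled siSbsn batch 1 replicate 1 was left out.

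*Dsg3*, the desmoglein gene of the lower layers, had 264 and 784 CPM with siControl and 1028 and 1309 CPM with siSbsn in batch 1. Batch 2 had 681, 762 and 523 CPM with siControl and 798, 706 and 799.9 CPM with siSbsn, and there the groups overlapped. The log2-fold change of *Dsg3* was 0.60 (SE 0.28, q = 0.266), and 0.33 without siControl batch 1 replicate 1. *Dsg2*, the desmoglein gene of simple epithelia and heart, was far lower, with 25.1 and 45.9 CPM against 43.2 and 65.6 CPM in batch 1, and 58.0, 66.9 and 46.9 CPM against 64.4, 64.2 and 65.1 CPM in batch 2. Its groups overlapped in both batches (log2-fold change 0.35, SE 0.18, q = 0.281), and the pooled value of *Dsg2* was 0.20 without siControl batch 1 replicate 1.

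The cadherin families were each dominated by few members. Per kb of the longest transcript, *Dsc3* made up 82.0% ± 0.0371 (SD, n = 2) of the summed desmocollin level in siControl of batch 1 and 91.5% ± 0.579 (SD, n = 3) in siControl of batch 2. *Dsc2* made up 15.4% ± 0.210 (SD, n = 2) and 5.73% ± 0.517 (SD, n = 3) of it. In siSbsn the share of *Dsc2* was 10.1% ± 1.16 (SD, n = 2) in batch 1 and 5.49% ± 0.140 (SD, n = 3) in batch 2. The share of *Dsc2* was thus higher in batch 1 than in batch 2 with either siRNA pool. *Dsc1* lay between 2.36% and 8.28% in single libraries. Among *Dsg1a*, *Dsg1b*, *Dsg2* and *Dsg3*, the share of *Dsg3* was 32.4% to 59.1% in single libraries and that of *Dsg1b* 30.4% to 54.5%, with the lowest *Dsg3* and the highest *Dsg1b* in siControl batch 1 replicate 1. *Dsg2* took 3.32% ± 0.00529 (SD, n = 2) in siControl of batch 1 and 5.23% ± 0.311 (SD, n = 3) in siControl of batch 2. Reads that align to more than 1 of the near-identical *Dsg1* genes were not counted. The shares of *Dsg1a* and *Dsg1b* may therefore be too low and those of *Dsg2* and *Dsg3* too high. The shares were taken with the longest transcript alone, and no test was run on them.

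**Figure D2:**
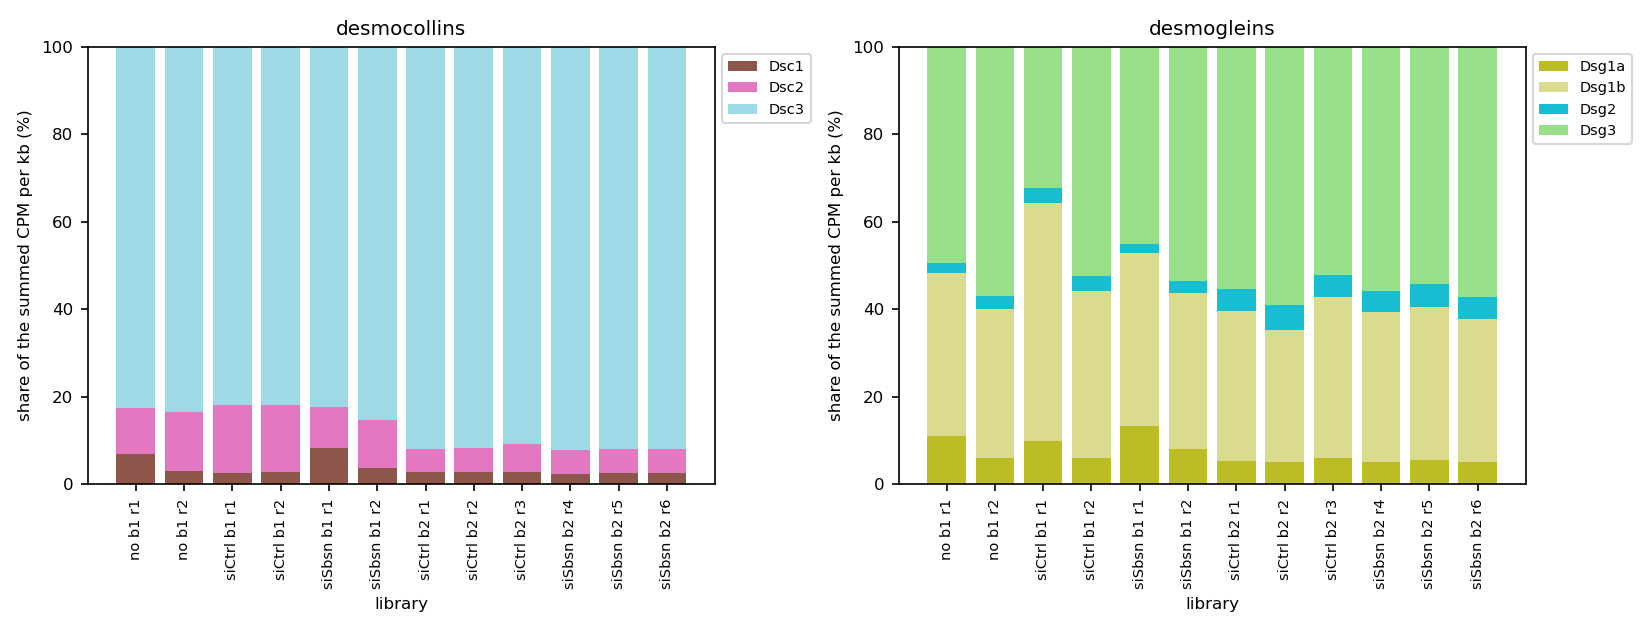
Share (%, axis from 0 to 100) of each gene in the summed CPM per kb of the desmocollin genes (left) and of *Dsg1a*, *Dsg1b*, *Dsg2* and *Dsg3* (right), per library (no, no siRNA; siCtrl, siControl; b, batch; r, replicate). *Dsc3* makes up most of the desmocollin bar in every library, and the *Dsc2* part is larger in batch 1 than in batch 2. Reads that align to more than 1 *Dsg1* gene were not counted.

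The log2-fold change of siSbsn against siControl was higher in batch 1 than in batch 2 for 9 of the 10 genes, all except *Pkp3*. Fitted as batch 2 minus batch 1, this difference was below 0 for 6997 of 13419 loci. Without siControl batch 1 replicate 1 its median for the 10 genes went from -0.45 to -0.36, and *Dsc2* turned to 0.18. The median log2-fold change was 0.61 in batch 1 (all loci -0.0068) and 0.18 in batch 2 (all loci -0.0072). Without siControl batch 1 replicate 1 the median of batch 1 was 0.53, and it was 0.78 when the library labelled siSbsn batch 1 replicate 1 was left out. The 6 fibroblast markers moved likewise, with a median log2-fold change of 1.02 in batch 1 and -0.022 in batch 2, and a median difference between the batches of -1.004 against -0.45 for the 10 desmosome genes. *Sbsn* itself was at 0.029 in batch 1 (SE 0.45, q = 0.975) and at -1.64 in batch 2 (SE 0.10, q = 0.00056). The part of the fibroblast markers and of the *Sbsn* level in these values was not tested. In batch 1, edgeR called 0 of the 10 genes (0.0% of loci), with 5 up at an unadjusted p under 0.05 (*Dsp*, *Pkp1*, *Dsg3*, *Dsc1* and *Dsc3*) against 7.52% of loci. DESeq2 called *Dsp* (q = 0.0273) and *Dsc1* (q = 0.0114) in batch 1, with 1.13% of loci called upward. In batch 2, edgeR called 0 of the 10 genes and 1 locus in all, *Sbsn* (0.00774% of loci), with 5 genes up at an unadjusted p under 0.05 (*Dsp*, *Jup*, *Pkp1*, *Dsc2* and *Dsc3*) against 4.51% of loci. DESeq2 called 0 of the 10 in batch 2 and 0.0114% of loci upward. All siSbsn libraries exceeded all siControl libraries for 6 of the 10 genes in batch 1 (25.2% of loci) and for 5 of the 10 in batch 2 (9.27% of loci). In both batches this held for 4 of the 10, *Dsp*, *Jup*, *Pkp1* and *Dsc3*, against 5.02% of loci.

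In edgeR's test of whether the effect differed between the batches, 0 of the 10 genes passed q under 0.05, and 0.0% of loci. At an unadjusted p under 0.05, 4 genes (*Dsp*, *Pkp1*, *Dsc1* and *Dsc3*) had a smaller effect in batch 2, against 7.56% of loci. The difference was -1.98 on the log2 scale for *Dsc1* (SE 0.43, q = 0.272), which DESeq2 called (q = 0.0036, with 1.07% of loci called downward). It was -0.69 for *Dsp* (SE 0.28, q = 0.309) and -0.68 for *Dsc3* (SE 0.27, q = 0.308). Without siControl batch 1 replicate 1 these were -1.61, -0.40 and -0.38.

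**Figure D3:**
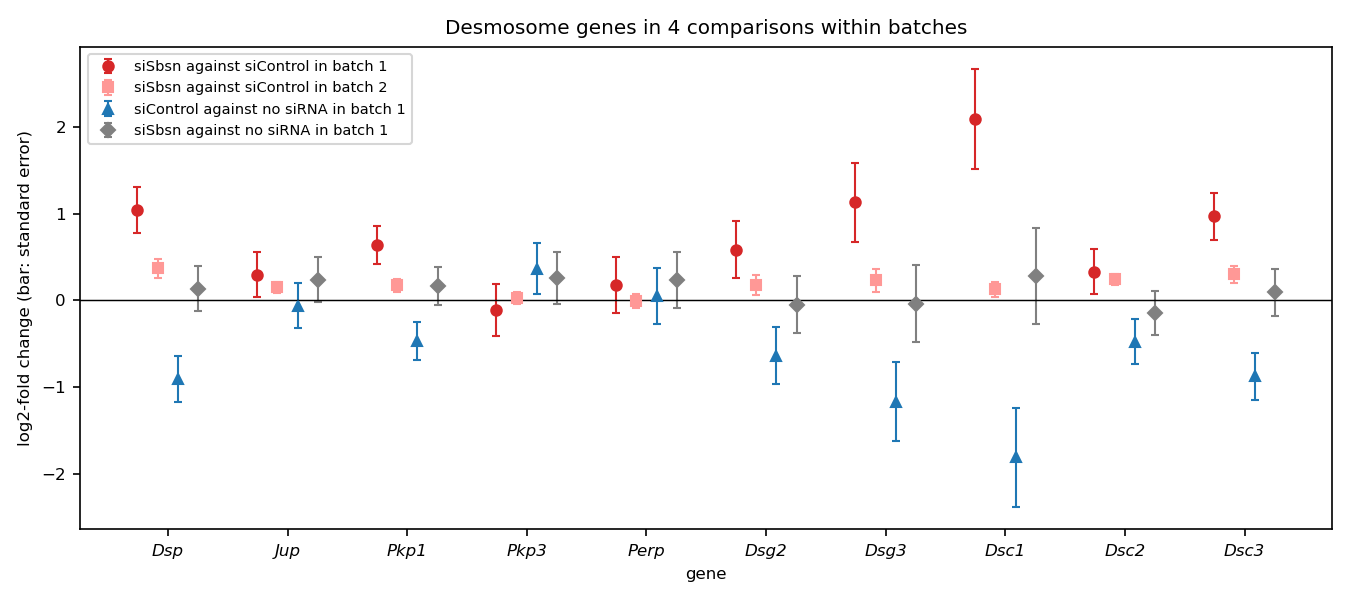
Log2-fold change (linear axis, bars are the standard error from edgeR) of each desmosome gene in 4 comparisons made within batches. In batch 1 siSbsn against siControl reached 2.09 for *Dsc1* and 1.05 for *Dsp*, and siControl against no siRNA mirrored it at -1.81 and -0.91, with siControl shared by both. All values of siSbsn against no siRNA lay between -0.14 and 0.28.

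Batch 1 also held cells without siRNA, against which each siRNA pool could be set. The labels and methods do not say whether these cells received the transfection reagent. For 7 of the 10 genes (*Dsp*, *Pkp1*, *Dsg2*, *Dsg3*, *Dsc1*, *Dsc2* and *Dsc3*) both siControl libraries lay below both libraries without siRNA, against 27.4% of loci. The log2-fold change of siControl against no siRNA was -0.91 for *Dsp* (SE 0.26), -0.88 for *Dsc3* (SE 0.27), -1.17 for *Dsg3* (SE 0.45) and -1.81 for *Dsc1* (SE 0.57), each with q = 0.308. *Dsg2* was at -0.64 (SE 0.33, q = 0.335) and *Dsc2* at -0.48 (SE 0.26, q = 0.341). Of the armadillo genes, *Pkp1* was at -0.47 (SE 0.22, q = 0.313), *Jup* at -0.062 (q = 0.899) and *Pkp3* at 0.37 (q = 0.478), and the tetraspan gene *Perp* was at 0.056 (q = 0.929). EdgeR called 0 of the 10 genes (0.0% of loci), with 4 down at an unadjusted p under 0.05 (*Dsp*, *Dsg3*, *Dsc1* and *Dsc3*) against 7.29% of loci, and DESeq2 called 0 of the 10 and 0.209% of loci downward. Without siControl batch 1 replicate 1, *Dsg3* was at -0.60, *Dsp* at -0.64, *Dsc1* at -1.46, *Dsg2* at -0.28, *Dsc2* at -0.20, *Jup* at -0.32, *Pkp3* at -0.081 and *Perp* at -0.16, and without replicate 1 of no siRNA *Dsc1* was at -0.88.

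Set against the same cells without siRNA, siSbsn gave log2-fold changes between -0.14 (*Dsc2*) and 0.28 (*Dsc1*). *Dsp* was at 0.14 (SE 0.26), *Dsg3* at -0.036 (SE 0.45), *Dsc3* at 0.093 (SE 0.27), *Dsc1* at 0.28 (SE 0.55), *Jup* at 0.24 (SE 0.26), *Pkp3* at 0.26 (SE 0.30) and *Perp* at 0.23 (SE 0.32), and q was 0.9999 for all 10 genes. EdgeR called 0 of the 10 (0.0% of loci) with 0 at an unadjusted p under 0.05 (0.175% of loci), and DESeq2 called 0 (0.0% of loci). The approximate 95% interval for *Dsp* ran from -0.38 to 0.65, and that for *Dsc1* from -0.81 to 1.37. The batch 1 differences of siSbsn against siControl, 1.05 for *Dsp* and 2.09 for *Dsc1*, lay above these intervals. Without siControl batch 1 replicate 1 those differences were 0.77 and 1.74. Over both batches the difference against siControl was 0.66 for *Dsp* and 0.92 for *Dsc1*. The intervals rest on groups of 2 libraries and on a normal multiplier, which makes them too narrow. The differences against siControl have errors of their own, so their place relative to the bounds is no test. Without replicate 1 of no siRNA *Dsc1* was at 1.22, and leaving out the library labelled siSbsn batch 1 replicate 1 gave -0.33. These comparisons share libraries with those above and are not separate evidence.

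The calls of batch 1 changed with the filter for low counts and with 1 siControl library left out. With no filter, edgeR called *Dsp*, *Dsg3*, *Dsc1* and *Dsc3* in siSbsn against siControl (4 of the 10, 3.29% of loci upward) and the same 4 genes in siControl against no siRNA (3.06% of loci downward). Without siControl batch 1 replicate 2, siControl batch 1 replicate 1, which stood apart, was alone in its group and was assumed to vary as the libraries of the other groups do. In that fit edgeR called *Dsp*, *Pkp1*, *Dsg3* and *Dsc3* (8.39% of loci upward) in the first comparison and *Dsp*, *Dsg3*, *Dsc2* and *Dsc3* (10.9% of loci downward) in the second. The same omission gave 6 of the 10 genes a smaller effect in batch 2 (*Dsp*, *Pkp1*, *Dsg2*, *Dsg3*, *Dsc1* and *Dsc3*), against 19.4% of loci.

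Log2-fold changes increased with transcript length across all loci, and the desmosome genes are mostly long, from 1952 bases (*Perp*) to 9592 (*Dsp*). By deciles of transcript length, the median log2-fold change of siSbsn against siControl went from -0.29 in the shortest decile to 0.35 in the longest, and across 12851 loci with a length its Pearson correlation with log2 length was 0.516 (loci share the libraries and are not independent replicates). The correlation had the same sign in batch 1 (0.480) and batch 2 (0.372) and the opposite sign in siControl against no siRNA (-0.553). The siControl libraries of batch 1 enter both contrasts of that batch from opposite sides, so these signs are not separate evidence. In siSbsn against no siRNA, which leaves siControl out, the correlation was -0.148. *Dsp*, in the longest decile, lay above 89.3% of its decile with a log2-fold change of 0.66. *Dsc1* lay above 99.5% of its decile, *Dsc3* above 96.0%, *Dsg3* above 95.4%, *Pkp1* above 88.1%, *Jup* above 87.8%, *Perp* above 86.5%, *Dsc2* above 80.1%, *Dsg2* above 77.0% and *Pkp3* above 62.4%. All 10 genes thus stood above the median of loci of similar length.

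When the trend of each library on transcript length was removed, the log2-fold changes of the long genes became smaller and those of the short ones larger. *Dsp* went from 0.66 to 0.34, *Dsg3* from 0.60 to 0.45, *Dsc3* from 0.58 to 0.46, *Pkp1* from 0.38 to 0.29 and *Dsg2* from 0.35 to 0.20. *Perp* went from 0.084 to 0.23 and *Pkp3* from -0.0055 to 0.057, while *Dsc1* stayed at 0.89, *Dsc2* was at 0.22 and *Jup* at 0.26. The median of the 10 genes was then 0.28 with 10 of 10 above 0, and the median of all loci 0.0080. EdgeR called 0 of the 10 genes after this step, and 0 of the 13211 loci tested. At an unadjusted p under 0.05, 8 of the 10, all except *Pkp3* and *Dsg2*, were up, against 8.48% of loci. In batch 1 the median went from 0.61 to 0.47 and *Dsp* from 1.05 to 0.50. In batch 2 *Dsp* went from 0.37 to 0.19. The difference between the effects of the batches went from -0.69 to -0.32 for *Dsp*, and its median from -0.45 to -0.34. In siControl against no siRNA *Dsp* went from -0.91 to -0.28, *Dsg3* from -1.17 to -0.87 and *Dsc3* from -0.88 to -0.62. *Dsc1* went from -1.81 to -1.75 there, and the median of the 10 genes from -0.56 to -0.31.

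**Figure D4:**
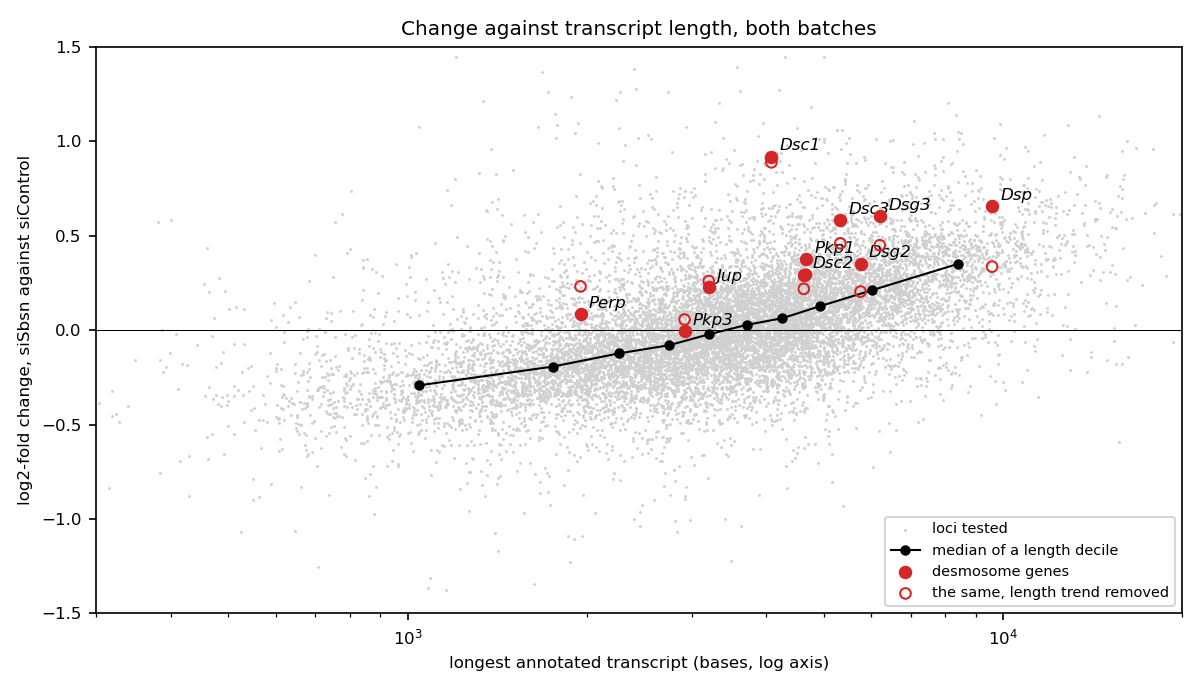
Log2-fold change of siSbsn against siControl over both batches (linear axis) against the longest annotated transcript (log axis), for loci tested (grey, 83 lie outside the axes), medians of length deciles (black) and the 10 desmosome genes as measured (filled) and with the length trend removed (open). The decile medians run from -0.29 to 0.35, and the filled points of all 10 genes lie above the median of their own decile.

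Batch 2 was also compared with batch 1, a separate set of libraries, with treatment in the model. Of the 10 genes 1 was called upward, against 16.4% of loci, and 4 downward, against 21.6% of loci. *Dsp* rose by 0.50 on the log2 scale in batch 2 (SE 0.17, q = 0.0313). *Dsc2* fell by 1.26 (SE 0.12, q = 2.9e-05), *Perp* fell by 0.72 (q = 0.000802), *Jup* fell by 0.57 (q = 0.00103) and *Pkp1* fell by 0.50 (q = 0.00462). *Pkp3* was at -0.40 (q = 0.0232), under the threshold of size. *Dsg2* was at 0.46 (q = 0.0605), *Dsg3* at -0.16 (q = 0.656), *Dsc1* at -0.78 (q = 0.102) and *Dsc3* at 0.038 (q = 0.860), and none of these was called. With the length trend removed *Dsp* was at 0.034 and no longer called, and without siControl batch 1 replicate 1 it was at 0.33. *Pkp1* was at -0.45 and *Dsc1* at -0.29 when the library labelled siSbsn batch 1 replicate 1 was left out.

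Over the 12 libraries, centred within batch, some of the genes moved with *Dsp* and others did not, without a clean split. Pearson correlations of log2 CPM with *Dsp* were 0.99 for *Dsc3*, 0.96 for *Pkp1*, 0.94 for *Dsg3*, 0.87 for *Dsg2*, 0.86 for *Dsc2* and 0.83 for *Dsc1*, but 0.32 for *Jup*, -0.025 for *Perp* and -0.45 for *Pkp3*. The latter 3, with transcripts of 3205, 1952 and 2919 bases, correlated with each other (*Jup* and *Perp* 0.82, *Pkp3* and *Perp* 0.73, *Jup* and *Pkp3* 0.69). *Dsc1* correlated with *Jup* at 0.56, *Perp* at 0.45 and *Pkp3* at -0.15, beside 0.56 with *Dsc2* and 0.53 with *Dsg2*. *Jup* and *Pkp1* correlated at 0.45. These are descriptions over libraries that share groups and the length trend. Among the 8514 loci with a mean of at least 10 CPM, the 3 whose pattern was most like that of *Dsp* were *Kdm5b* (r = 0.990), *Dsc3* (r = 0.990) and the joined locus of *Gm10789* and *Tiam1* (r = 0.989), with longest transcripts of 8714, 5333 and 7289 bases.

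Other genes of the junction and its surroundings were read from lists by name, and edgeR called 0 of their loci over both batches. Their counts stand against 50.8% of all loci above 0 and 9.55% up at an unadjusted p under 0.05. Among 6 further desmosome loci, 4 were above 0 and 3 were up at an unadjusted p under 0.05. *Dsg1b* was at 0.47 (q = 0.256, and q = 0.0339 from DESeq2, under the threshold of size), *Dsg1a* at 0.75 and *Dsg4* at 1.81 from very low levels, while the plakophilin genes *Pkp2* and *Pkp4* were at -0.11 and 0.072. The *Dsg1* genes are near-identical copies, and reads that align to more than 1 of them were not counted. Of the 6 plakin loci, which include the cytolinkers of the cornified envelope and of hemidesmosomes, 6 were above 0 and 4 were up at an unadjusted p under 0.05. *Ppl* (periplakin) was at 0.44, *Eppk1* (epiplakin) at 0.49 and *Macf1* at 0.60, and with the length trend removed they were at 0.26, 0.054 and 0.042. The median of the plakin loci then went from 0.45 to -0.017, with 3 above 0 and 3 below, the latter being *Dst* (-0.12), *Plec* (-0.17) and *Evpl* (-0.076), named after their values were seen.

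Of 11 adherens junction loci, the cadherin-catenin junction beside the desmosome, 9 were above 0 and 3 were up at an unadjusted p under 0.05. *Ctnnb1* (beta-catenin, a relative of plakoglobin) was at 0.33, and the nectin genes *Pvrl1* and *Pvrl4* were at 0.29 and 0.22. Of 7 corneodesmosome loci, which serve the modified desmosomes of the cornified layer and their proteolysis, 5 were above 0 and 1 was up at an unadjusted p under 0.05. It was *Spink5* (a protease inhibitor) at 0.37, and the kallikrein genes *Klk6* and *Klk7* were at -0.27 and 0.14. Of 15 regulator loci 12 were above 0 and 5 were up at an unadjusted p under 0.05. *Grhl1*, which encodes a transcription factor known to act on desmosomal cadherin genes, was at 0.34 (q = 0.256, and q = 0.00529 from DESeq2, under the threshold of size), *Add1* (adducin) at 0.23 and *Prkca* (protein kinase C alpha) at 0.35. With the length trend removed, the median went from 0.22 to 0.13 for the adherens junction loci and from 0.22 to 0.12 for the regulator loci. That of the corneodesmosome loci went from 0.14 to 0.28. *Pvrl1* was then at 0.13 and *Prkca* at 0.058, while *Ctnnb1* stayed at 0.33 and *Grhl1* at 0.34. RNA of whole cultures was measured, so fewer cells of a type and less RNA per cell cannot be told apart.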

How the data were processed

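RNA-Seq was performed on 12 libraries of mouse keratinocytes, prepared with a Neoprep kit. The authors aligned the reads to mm10 with STAR, kept uniquely aligned reads and counted them on genes of the UCSC KnownGene annotation, and the values the authors deposited are raw counts. The strand setting of the counting is not stated in the methods or labels. None of the 10 genes shares its locus with another gene. Loci low in all libraries were left out with edgeR's filterByExpr, and counts were tested with edgeR 4.0.16 (TMM, quasi-likelihood test, Benjamini-Hochberg q over all loci tested, R 4.3.3). DESeq2 1.42.0, limma-voom (limma 3.58.1), other scalings, no filter, each library left out and the removal of a trend on transcript length (lowess of span 0.3, longest GENCODE transcript of mm10) were alternatives. CPM used the library size scaled by TMM, and correlations used log2(CPM + 0.5). Standard errors were taken from the log2-fold change and its F value. The approximate intervals used a normal multiplier, which is too small for so few libraries. Coordinates are those of the files after adding 1 to the start. The tests were checked on simulated data. The genes, the lists and the rule for naming genes (all 10 genes, *Sbsn*, the 3 loci of each list with the smallest p, and the 3 loci most like *Dsp*) were chosen with earlier results of these data known.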

Additional observations from a re-analysis of the deposited data

Results flagged for a closer look

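The effect of siSbsn on *Dsc1* differed between the batches by -1.98 on the log2 scale in DESeq2's test of the interaction (q = 0.0036), with log2-fold changes from DESeq2 of 2.12 in batch 1 and 0.13 in batch 2. EdgeR's quasi-likelihood test of the same difference gave q = 0.272. With each library left out in turn it lay between -2.49 and -1.39. The 2 siSbsn libraries of batch 1 differed from each other, at 143 and 69.3 CPM, and the higher one had summed fibroblast markers of 1163 CPM against 488 CPM in the other. The part of that difference in the result was not tested.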

How the results depend on the processing

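Of the 10 genes, edgeR called 0 over both batches under every alternative except DESeq2, which called 1. In batch 1 DESeq2 called 2 and no filter on low counts 4. In the test of a difference between the batches each of these called 1 gene, and in siControl against no siRNA no filter called 4. With each library left out in turn, 0 genes were called over both batches, 0 to 4 in batch 1, 0 to 6 for the difference between batches, 0 to 4 in siControl against no siRNA and 3 to 5 between the batches. The counts of 4 and 6 came without siControl batch 1 replicate 2, which left 1 library to stand for its group. The median of the 10 genes over both batches lay between 0.28 and 0.43 without 1 library.

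Over both batches *Pkp3* turned sign and was at 0.0012 with DESeq2, 0.00020 with DESeq2 size factors in edgeR, 0.013 with limma-voom, 0.057 with the length trend removed, 0.012 with the replicate block and 0.068 with the replicate block and the length trend removed. With the length trend removed the signs of *Pkp3* in batch 1 (0.0069), *Perp* in batch 2 (0.064), *Dsc2* between the effects of the batches (0.0084), *Perp* in siControl against no siRNA (-0.25), *Dsg3* in siSbsn against no siRNA (0.0071) and *Dsc3* between batches (-0.13) turned. The called difference of *Pkp1* between batches fell below the threshold of size under 5 alternatives. That of *Dsp* was lost with the length trend removed and with upper quartile factors.

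With each library left out in turn, the ranges that crossed 0 were as follows. Over both batches *Pkp3* ranged from -0.095 to 0.13 and *Perp* from -0.024 to 0.14. In batch 1 *Pkp3* ranged from -0.45 to 0.34 and *Perp* from -0.095 to 0.41, and in batch 2 from -0.021 to 0.068 and from -0.049 to 0.058. In the difference between the effects of the batches *Jup* ranged from -0.40 to 0.013, *Pkp3* from -0.31 to 0.42, *Perp* from -0.45 to 0.033 and *Dsc2* from -0.48 to 0.18. For siControl against no siRNA *Jup* ranged from -0.32 to 0.15, *Pkp3* from -0.081 to 0.71 and *Perp* from -0.26 to 0.46. For siSbsn against no siRNA *Perp* ranged from -0.083 to 0.64, *Dsg2* from -0.39 to 0.23, *Dsg3* from -0.22 to 0.13, *Dsc1* from -0.33 to 1.22, *Dsc2* from -0.33 to 0.022 and *Dsc3* from -0.037 to 0.24. Between batches *Dsg3* ranged from -0.46 to 0.019 and *Dsc3* from -0.14 to 0.14. The causes were not tested.

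Replicate numbers 1 and 2 are shared by the conditions of batch 1, without a label that ties them to a culture. Deviations of the number 1 libraries from their group means correlated across loci, at 0.379 to 0.805 between conditions. With the replicate block the median of the 10 genes over both batches was 0.37. The block was fitted in 5 comparisons, and edgeR called 0 of the 10 genes in them (*Dsg2* in batch 1 had q = 0.123). Of 13419 loci, those called for the difference between the effects of the batches went from 0 to 73. In the other comparisons with the block 0 loci were called.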

Other observations

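The desmoglein 1 genes, which are not among the 10 genes above but partner with *Dsc1* in the upper layers, showed a like spread in batch 1. *Dsg1a* had 72.8 and 81.4 CPM in the siControl libraries, 275 and 179 CPM in the siSbsn libraries and 240.4 and 115 CPM in the libraries without siRNA. In batch 2 it had 54.0 to 58.7 CPM with siControl and 64.4 to 66.2 CPM with siSbsn. As for *Dsc1*, the 2 highest values came from the 2 libraries with the highest summed fibroblast markers, and the part of these markers in the values was not tested. *Dsg1b* was more abundant, with 284 and 365 CPM with siControl, 574 and 557 CPM with siSbsn and 565 and 465 CPM without siRNA in batch 1. In batch 2 it had 236 to 271 CPM with siControl and 289 to 315 CPM with siSbsn, and for both genes the siSbsn libraries exceeded siControl in both batches.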
